A study of Mus musculus with 18 samples.

Results

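The transcripts described here are those of the PD-1 ligands and of costimulatory molecules of antigen-presenting cells. They are 8 genes chosen by symbol: Cd274, Pdcd1lg2, Cd80, Cd86, Cd40, Cd83, Icosl and Cd69. All 8 were found by Ensembl identifier among the 54446 genes of the table, of which 27840 had a value above 0 in any library. Eosinophils were taken from the peritoneal cavity of Il5Tg mice (NJ.1638, C57BL/6), which overproduce the eosinophil growth factor IL-5 from a transgene. The eosinophils of all 6 groups carried that transgene and spent 18 h beside apoptotic cells (ACs), wild-type thymocytes treated with dexamethasone, at 5 ACs to each eosinophil. Afterwards the eosinophils were purified again with anti-Siglec-F beads, and RNA was sequenced from the 3′ end with 3 libraries per group, stated to come from different mice. In the Type 1 experiment, 1 group had ACs alone and 3 had a stimulus as well, which was E. coli, IFN-γ, or IFN-γ followed by E. coli (named IFN-γ + E. coli + ACs). A separate IL-4 experiment had 2 groups, its own ACs control and IL-4 + ACs. The doses are not given in the sources used here, and eosinophils without ACs are not analysed here.

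T cells need a second signal beside recognition of antigen, and the molecules of this group give it or restrain it. CD80 and CD86 bind CD28 and CTLA-4 on T cells, ICOSL binds ICOS, and PD-L1 (Cd274) and PD-L2 (Pdcd1lg2) bind the inhibitory receptor PD-1. CD40 is a receptor of the TNF receptor family that receives CD40L from T cells and signals through TRAF proteins to NF-κB, CD83 marks mature dendritic cells, and CD69 is an early activation antigen that holds back the egress receptor S1PR1 and is used as an activation marker of eosinophils. IFN-γ is known to raise PD-L1 in many cells, while IL-4 is known to raise PD-L2 in macrophages through STAT6.

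Reads counted on genes ranged from 2216917 to 7782072 in 16 libraries, and were 849705 and 779421 in replicate 3 of IL-4 + ACs and of its ACs group. In those last libraries 3 reads stand for normalized counts of 15.42 and 16.08, so low values are coarse there. The eosinophil transcripts Siglecf and Ccr3 were abundant in every group, with Siglecf between 1514 and 3367 and Ccr3 between 2623 and 4934, while Epx, which encodes eosinophil peroxidase, did not exceed 25.7. Eosinophil transcripts were lower with IFN-γ, where 3 of 6 tested eosinophil markers fell and none rose, against 9.96% and 11.4% of all genes. Siglecf went from a mean of 3237 with ACs to 1630.07 (log2 change -0.99, limma adjusted p = 5.5e-07). The sum of the 8 eosinophil markers was 7597.6 to 7996.5 with ACs and 4856.5 to 5678.1 with IFN-γ, and the part of this shift in the IFN-γ changes was not tested. Transcripts used here as markers of macrophages were also abundant. The paper reports Tim4 (Timd4) mRNA, and less Mertk mRNA, in peritoneal eosinophils by quantitative PCR. By flow cytometry it found no TIM-4 protein on them. It also reports that the re-purified eosinophils were checked for purity by flow cytometry. Which cells the reads of these markers came from was not tested. All 8 macrophage markers (Csf1r, C1qa, C1qb, C1qc, Marco, Vsig4, Timd4 and Mertk) had at least 3 reads in every library. Their summed normalized count was 12262.7 to 15874.3 with ACs alone in the Type 1 experiment, 4968.2 to 6463.7 with E. coli, 19049.6 to 27690.2 with IFN-γ and 6004.5 to 6567.0 with both. In the IL-4 experiment it was 18122.2 to 27085.8 with ACs and 14317.4 to 24327.3 with IL-4, with replicate 3 the highest of each group. Summed markers were far lower for thymocytes and T cells (45.5 to 180.3 over all libraries), dendritic cells (58.0 to 215.5), B cells (12.8 to 91.6) and mast cells (5.6 to 67.6). In such bulk samples, fewer cells of a type and less RNA per cell cannot be told apart.

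**Figure D1:**
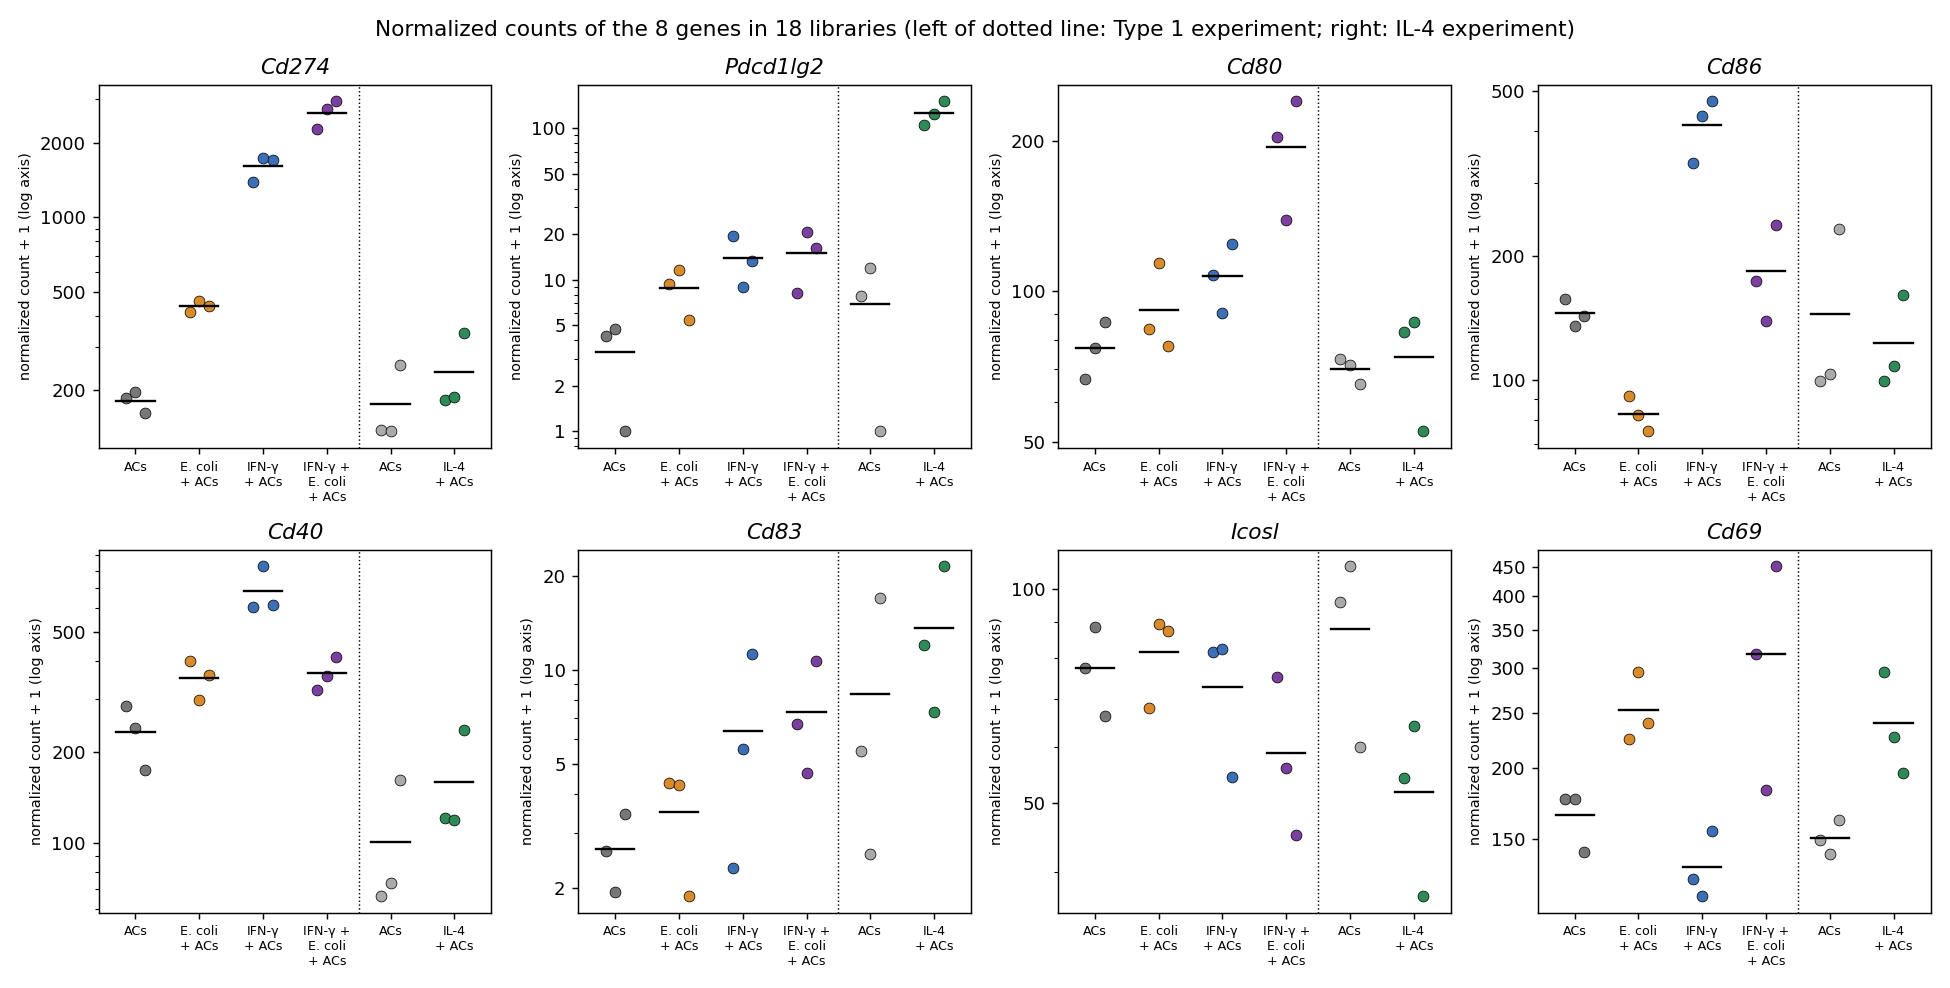
Normalized count plus 1 of each gene (log axis, scaled per panel) in each of the 18 libraries, by group, with a horizontal line at the group mean. Cd274 climbs from 161 to 195 with ACs to between 2267 and 2937 with IFN-γ + E. coli + ACs, while Pdcd1lg2 stands at 104 to 149 with IL-4 + ACs and at most 19.5 in every other group.

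The first question was which members answered E. coli and IFN-γ in eosinophils that had met apoptotic cells. Pdcd1lg2 and Cd83 had a mean below 10 over the Type 1 libraries and were left out of that fit, so 6 of the 8 were tested there. A change passed at an adjusted p under 0.05 and at least 1.5-fold. With E. coli, 2 of these 6 rose (Cd274 and Cd40) and 1 fell (Cd86), where 5.05% of all 10166 genes tested rose and 5.25% fell. With IFN-γ, 3 rose (Cd274, Cd86 and Cd40) and none fell, against 11.4% of all genes that rose and 9.96% that fell. With both stimuli, 4 rose (Cd274, Cd80, Cd40 and Cd69) and none fell, against 14.7% and 17.2%. The median log2 change of the tested members was 0.43, 0.99 and 0.76 in these comparisons, beside 0.00, 0.00 and -0.05 over all genes tested. Counted by range, 4 of the 8 members lay above their ACs libraries without overlap with E. coli (Cd274, Pdcd1lg2, Cd40 and Cd69) and 1 below (Cd86), where 19.9% of all genes tested lay above and 18.4% below. With IFN-γ, 5 lay above (Cd274, Pdcd1lg2, Cd80, Cd86 and Cd40) and none below, against 22.6% and 20.3%. With both stimuli, 6 lay above (all but Cd86 and Icosl) and none below, against 23.9% and 24.8%. The shares by range are over the 10166 genes tested, a set without Pdcd1lg2 and Cd83, while the members were counted over all 8. These comparisons share their ACs libraries.

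**Figure D2:**
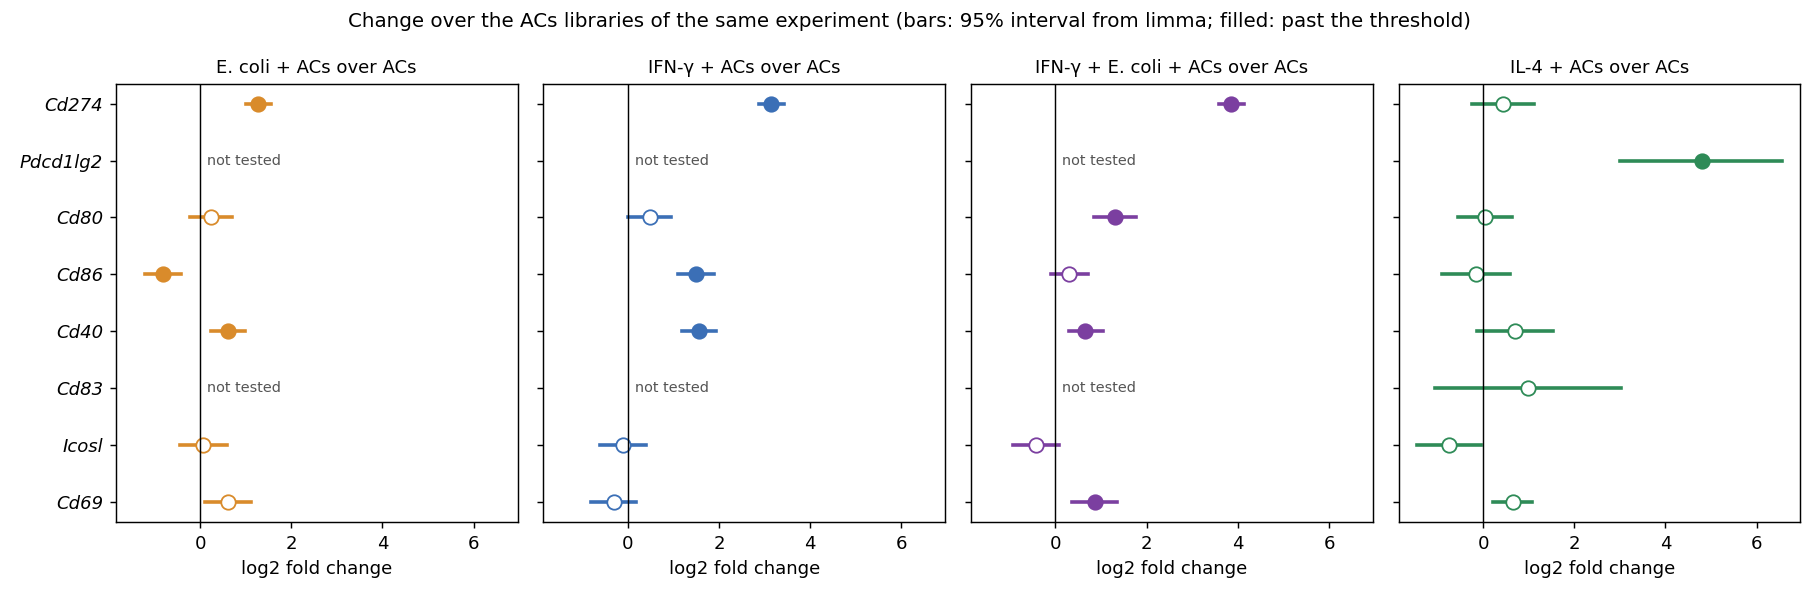
Log2 fold change of each gene over the ACs libraries of its own experiment, with 95% intervals from limma; filled points passed the threshold. Cd274 lies at 1.27, 3.15 and 3.86 in the Type 1 comparisons and at 0.43 with IL-4, whereas Pdcd1lg2, tested only with IL-4, lies at 4.79.

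Cd274 (ENSMUSG00000016496.7) encodes PD-L1 and lies on the plus strand of chr19:29367455-29388095 in GRCm38. The ACs libraries held normalized counts of 185, 195 and 161, and the E. coli libraries 414, 460.27 and 439. Addition of IFN-γ alone gave 1394, 1739.95 and 1709, and both stimuli gave 2267, 2745 and 2937. These groups did not overlap, and every library of a group lay above every library of the group before it. Over ACs alone, the log2 change was 1.27 with E. coli (SE 0.13, limma adjusted p = 1.3e-06), 3.15 with IFN-γ (SE 0.13, adjusted p = 1.3e-12) and 3.86 with both (SE 0.13, adjusted p = 4.8e-14), which is 2.42-fold, 8.88-fold and 14.5-fold on the log2(value + 1) scale. E. coli added 0.71 on top of IFN-γ (adjusted p = 0.00068), and IFN-γ added 2.59 on top of E. coli (adjusted p = 3.6e-11). The sum of the single changes exceeded the change with both, and that difference of -0.56 (SE 0.18, adjusted p = 0.068) missed the threshold. It passed, as -0.66 and -0.64, without replicate 1 of IFN-γ + ACs (adjusted p = 0.041) or replicate 3 of IFN-γ + E. coli + ACs (adjusted p = 0.039). Beside these values, the macrophage marker sum was higher than with ACs alone when IFN-γ was given (19049.6 to 27690.2), and lower with E. coli (4968.2 to 6463.7) and with both (6004.5 to 6567.0). The part of these transcripts in the Cd274 values was not tested.

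In the IL-4 experiment, Cd274 was at 137, 135 and 252 with ACs and at 182, 187 and 339 with IL-4 + ACs. The groups overlapped, since replicate 3 was the highest library of each, as it was for the macrophage marker sum, and the change of 0.43 (SE 0.31, 95% interval -0.25 to 1.11, limma adjusted p = 0.70) did not pass. The difference between the change with IL-4 and that with IFN-γ was -2.72 (SE 0.31, adjusted p = 2.7e-06). The order of the group means was ACs of the IL-4 experiment (175), ACs of the Type 1 experiment (181), IL-4 + ACs (236), E. coli + ACs (438), IFN-γ + ACs (1615) and IFN-γ + E. coli + ACs (2649.57). The 3 lowest overlapped with a neighbour in that order, and the 3 highest did not.

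Pdcd1lg2 (ENSMUSG00000016498.9) encodes PD-L2, the other ligand of PD-1. It lies downstream of Cd274 on the same strand, at chr19:29410919-29471161, with 22823 bases between the genes. An antisense transcript, A930007I19Rik, overlaps it on the other strand with 12.2 to 65.33 normalized counts per library (median 20.6), and since the strand setting of the counting is not stated, reads of the pair may not be separated. The 250 bases before its RefSeq start (GRCm38.p6, chr19:29410669-29410918, plus strand) are printed because Pdcd1lg2 was the member that passed with IL-4. Capitals mark 2 motif matches, a STAT6 motif (TTC and GAA with 4 bases between them) that begins 82 bases before the start and a kappaB consensus match that begins 244 bases before it:

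Pdcd1lg2: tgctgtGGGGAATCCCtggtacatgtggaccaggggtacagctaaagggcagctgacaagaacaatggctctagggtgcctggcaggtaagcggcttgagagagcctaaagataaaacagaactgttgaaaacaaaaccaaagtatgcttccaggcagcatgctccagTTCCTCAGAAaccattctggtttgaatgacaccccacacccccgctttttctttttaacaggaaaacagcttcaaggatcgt

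Both strands were searched, and the matches do not overlap. Of 32851 RefSeq windows of the same length, 5.85% hold the STAT6 motif and 3.9% the kappaB consensus. The GAS motif (TTCNNNGAA), held by 7.02% of windows, and the ISRE (GAAA repeated after 2 bases), held by 2.98%, were not in this window. None of the 4 motifs was in the windows of Cd274, Cd80 or Icosl, and windows of the other members were not used here. A match is a description of these letters and no evidence of binding.

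With ACs alone, Pdcd1lg2 was at 6.77, 10.9 and 0 in the IL-4 experiment, from 9, 14 and 0 reads. With IL-4 + ACs it was at 104, 123 and 149, from 179, 233 and 29 reads. The groups did not overlap, and the mean rose from 5.89 ± 5.50 to 125 ± 22.8 (SD, n = 3). The log2 change was 4.79 (SE 0.80, 95% interval 3.01 to 6.56, limma adjusted p = 0.020). Pdcd1lg2 met the filter of this fit, a mean of at least 10, only through the IL-4 + ACs libraries, as its mean with ACs was 5.89. It was the only one of the 8 members, all tested here, to pass with IL-4, where 0.74% of 10669 genes rose and 0.347% fell. The call was lost without any of the IL-4 + ACs libraries, with 4.91 (adjusted p = 0.073) without replicate 1, 4.79 (0.064) without replicate 2 and 4.65 (0.11) without replicate 3, and edgeR on the recovered reads of all genes gave 3.89 (adjusted p = 8.2e-25). The summed count of 8 dendritic cell markers moved with it, from 120.7 to 139.4 with ACs to 164.5 to 215.5 with IL-4. In that sum Batf3 went from a mean of 50.76 to 124 and Cd209a from 1.55 to 25.6, Fscn1 went from 47.7 to 16.2, Ccr7 was at 8.18 and 11.7, and the means of Flt3, Zbtb46, Xcr1 and Clec9a were no higher with IL-4 and under 10 in both groups. The sum of the 8 eosinophil markers also rose, from 9248.4 to 12339.4 with ACs to 14093.7 to 15307.5 with IL-4. Of these 8, 2 were called higher and none lower. Ear6 went from a mean of 4515 to 8328, while Siglecf went from 2625 to 2379 and Ccr3 from 3440 to 3100. Of the 8 macrophage markers, 2 were called lower and none higher. The part of these marker shifts in the Pdcd1lg2 result was not tested.

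Pdcd1lg2 stayed low in the Type 1 experiment. It had 0 to 4 reads per library with ACs alone (normalized counts of 3.25, 3.75 and 0) and 5 to 13 once E. coli was added (8.37, 10.6 and 4.4). IFN-γ alone gave 6 to 14 reads (18.5, 8.02 and 12.3), and both stimuli gave 5 to 16 (7.13, 19.5 and 15.2). Every stimulated library was above every ACs library. When all genes with a value above 0 were fitted, the log2 change was 2.29 with IFN-γ (limma adjusted p = 0.038) and 2.35 with both (adjusted p = 0.023), and edgeR gave 2.40 (adjusted p = 0.011) and 2.55 (adjusted p = 0.0036). With E. coli it was 1.62 in limma (adjusted p = 0.24) and 1.74 in edgeR (adjusted p = 0.15). The difference between the change with IL-4 and that with IFN-γ was 2.50 (SE 1.07, 95% interval 0.27 to 4.74, limma adjusted p = 0.13), which did not pass. In that fit too, Pdcd1lg2 met the filter on the mean only through the IL-4 + ACs libraries.

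The 2 PD-1 ligands were then compared within each library as log2 of (Cd274 + 1) over (Pdcd1lg2 + 1). CEL-Seq2 counts transcripts at their 3′ end, so counts were not divided by length, and the ratio is read only between groups. The log2 ratio was 6.06 ± 1.12 (SD, n = 3) with ACs alone in the Type 1 experiment, 5.71 ± 0.56 with E. coli, 6.92 ± 0.72 with IFN-γ and 7.56 ± 0.53 with both. In the IL-4 experiment it was 5.22 ± 2.42 with ACs, with libraries from 3.52 to 7.98, and 0.86 ± 0.29 with IL-4, with libraries from 0.60 to 1.18. In normalized counts, the mean of Cd274 was 189.93 times that of Pdcd1lg2 with IFN-γ + E. coli + ACs and 1.88 times with IL-4 + ACs. The difference of -4.36 with IL-4 gave p = 0.10 in a two-sided exact permutation test, the smallest p that 3 against 3 libraries can give. That difference is the change of Cd274 less the change of Pdcd1lg2 in the same libraries, so it adds no independent result. With a pseudocount of 5 the difference turned from -0.35 to 0.44 with E. coli, and moved from 0.86 to 1.83 with IFN-γ and from 1.51 to 2.48 with both. The exact tests gave 0.70 for E. coli, 0.30 for IFN-γ and 0.20 for both stimuli, and the E. coli difference also turned to 0.30 without replicate 3 of ACs, where Pdcd1lg2 was at 0.

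**Figure D3:**
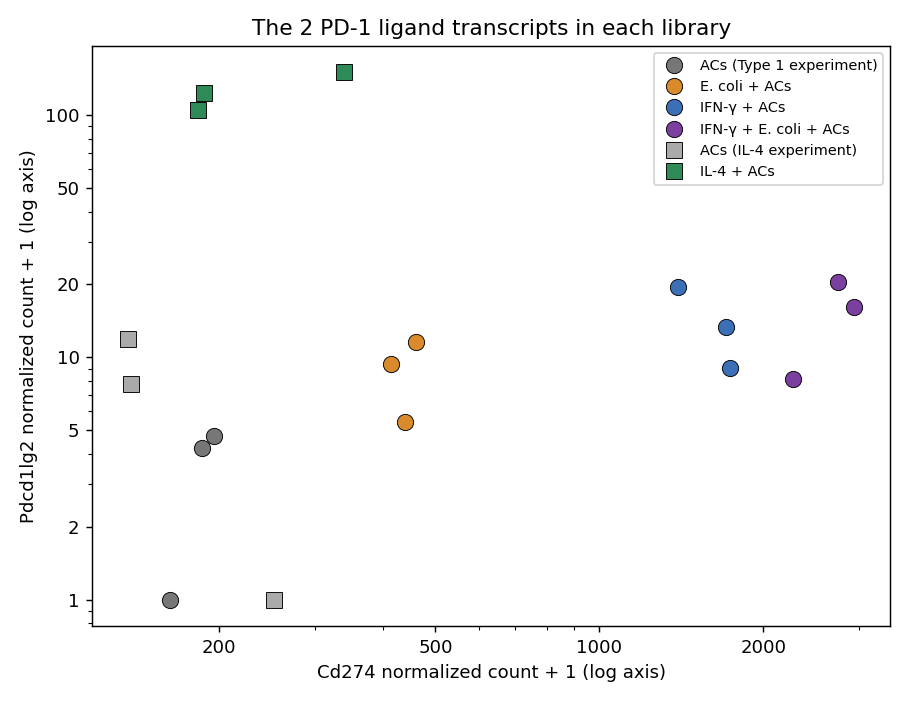
Normalized count plus 1 of Cd274 (x axis) and Pdcd1lg2 (y axis) in each library, both on log axes; circles are the Type 1 experiment and squares the IL-4 experiment. IFN-γ libraries lie to the right (Cd274 from 1394 to 2937, Pdcd1lg2 at most 19.5), and IL-4 libraries lie at the top (Pdcd1lg2 from 104 to 149, Cd274 from 182 to 339).

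CD80 and CD86 share their receptors, and their transcripts did not move alike. Cd86 (ENSMUSG00000022901.13, minus strand of chr16:36603869-36666081) was at 156, 134 and 142 with ACs and at 90.4, 80.9 and 73.9 once E. coli was added. IFN-γ alone gave 334, 434 and 472, and both stimuli gave 172, 138 and 236. Thus it was lowest with E. coli and highest with IFN-γ, without overlap with ACs in either case, and the group with both stimuli overlapped that with ACs. The log2 change was -0.81 with E. coli (SE 0.19, limma adjusted p = 0.0072), 1.5 with IFN-γ (SE 0.19, adjusted p = 7.4e-06) and 0.30 with both (95% interval -0.10 to 0.71, adjusted p = 0.22). On top of IFN-γ, E. coli changed Cd86 by -1.20 (adjusted p = 0.00021), and on top of E. coli, IFN-γ raised it by 1.12 (adjusted p = 3e-04). The interaction of -0.39 (95% interval -0.95 to 0.18, adjusted p = 0.44) did not pass, and the fall with E. coli was not called with all 18 libraries in 1 fit (adjusted p = 0.059).

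Cd80 (ENSMUSG00000075122.5, plus strand of chr16:38455561-38496335) was at 65.9, 76.0 and 85.6 with ACs, 82.9, 113 and 76.5 with E. coli, and 107, 89.4 and 123 with IFN-γ. With both stimuli it reached 202, 138 and 239, above every library of the other 3 groups. The log2 change was 1.31 with both (SE 0.22, limma adjusted p = 0.00011). With a single stimulus it was 0.24 for E. coli (95% interval -0.22 to 0.71, adjusted p = 0.55) and 0.48 for IFN-γ (0.01 to 0.95, adjusted p = 0.12), and neither passed. Over IFN-γ alone, Cd80 was higher by 0.83 (adjusted p = 0.012), a call lost without replicate 2 of IFN-γ + ACs (0.71, adjusted p = 0.064) or replicate 3 of IFN-γ + E. coli + ACs (0.66, adjusted p = 0.060). Over E. coli alone it was higher by 1.07 (adjusted p = 0.0017). The interaction, 0.59 (95% interval -0.07 to 1.24, adjusted p = 0.28), did not pass.

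With IL-4 neither of them passed. Cd86 was at 98.5, 102 and 231 with ACs and at 98.5, 107 and 159 with IL-4 + ACs, a change of -0.15 (95% interval -0.90 to 0.60, limma adjusted p = 0.91) in which replicate 3 was again the highest of each group. Cd80 was at 72.2, 70.1 and 64.3 with ACs and at 81.7, 85.9 and 51.4 with IL-4 + ACs, a change of 0.05 (95% interval -0.54 to 0.63, adjusted p = 0.97). The change of Cd86 with IL-4 was 1.66 below that with IFN-γ (log2 difference -1.66, SE 0.38, adjusted p = 0.0045), and for Cd80 the difference was -0.43 (adjusted p = 0.45).

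Cd40 (ENSMUSG00000017652.16, plus strand of chr2:165055627-165072948) was at 284, 240.25 and 174 with ACs and at 400.16, 296 and 361 once E. coli was added. IFN-γ alone gave 604, 828 and 614, and both stimuli gave 321, 358 and 413. All stimulated libraries were above those with ACs alone, and the group with both stimuli overlapped the E. coli group and lay below that with IFN-γ. The log2 change was 0.61 with E. coli (SE 0.18, limma adjusted p = 0.029), 1.56 with IFN-γ (SE 0.18, adjusted p = 2.2e-06) and 0.66 with both (SE 0.18, adjusted p = 0.0068). On top of IFN-γ, E. coli changed Cd40 by -0.90 (adjusted p = 0.0016), whereas IFN-γ on top of E. coli gave 0.05 (95% interval -0.33 to 0.43, adjusted p = 0.88). The interaction was -1.51 (SE 0.26, adjusted p = 0.0012), and Cd40 was the only member of the 6 tested to pass it, where 3.16% of all genes passed higher and 4.28% lower. Its rise with E. coli was lost without replicate 2 (0.65, adjusted p = 0.061) or 3 (0.42, adjusted p = 0.18) of ACs, or replicate 1 (0.52, adjusted p = 0.14) or 3 (0.59, adjusted p = 0.092) of E. coli + ACs. Its rise with both was lost without replicate 3 of ACs (0.47, adjusted p = 0.057) or of IFN-γ + E. coli + ACs, where the change of 0.57 was under 1.5-fold, and also with upper quartile scaling (0.52, under 1.5-fold) or with all 18 libraries in 1 fit (adjusted p = 0.082).

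In the IL-4 experiment Cd40 was at 65.4, 72.4 and 161 with ACs and at 119, 118 and 236 with IL-4 + ACs. The groups overlapped through replicate 3, the highest of each, and the change of 0.70 (95% interval -0.14 to 1.54, limma adjusted p = 0.60) did not pass. Without replicate 3 in both groups it was 0.77 (adjusted p = 0.019). Its difference from the change with IFN-γ was -0.86 (SE 0.41, limma adjusted p = 0.18), which did not pass. Between the ACs groups of the experiments, Cd40 was lower in the IL-4 one without overlap, at 99.6 ± 53.2 against 233 ± 55.4 (SD, n = 3). Cd40 was the only 1 of the 8 members whose ACs groups did not overlap. By range, 22.4% of all genes tested, a set without Cd83, were higher and 19.9% lower in the IL-4 one.

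**Figure D4:**
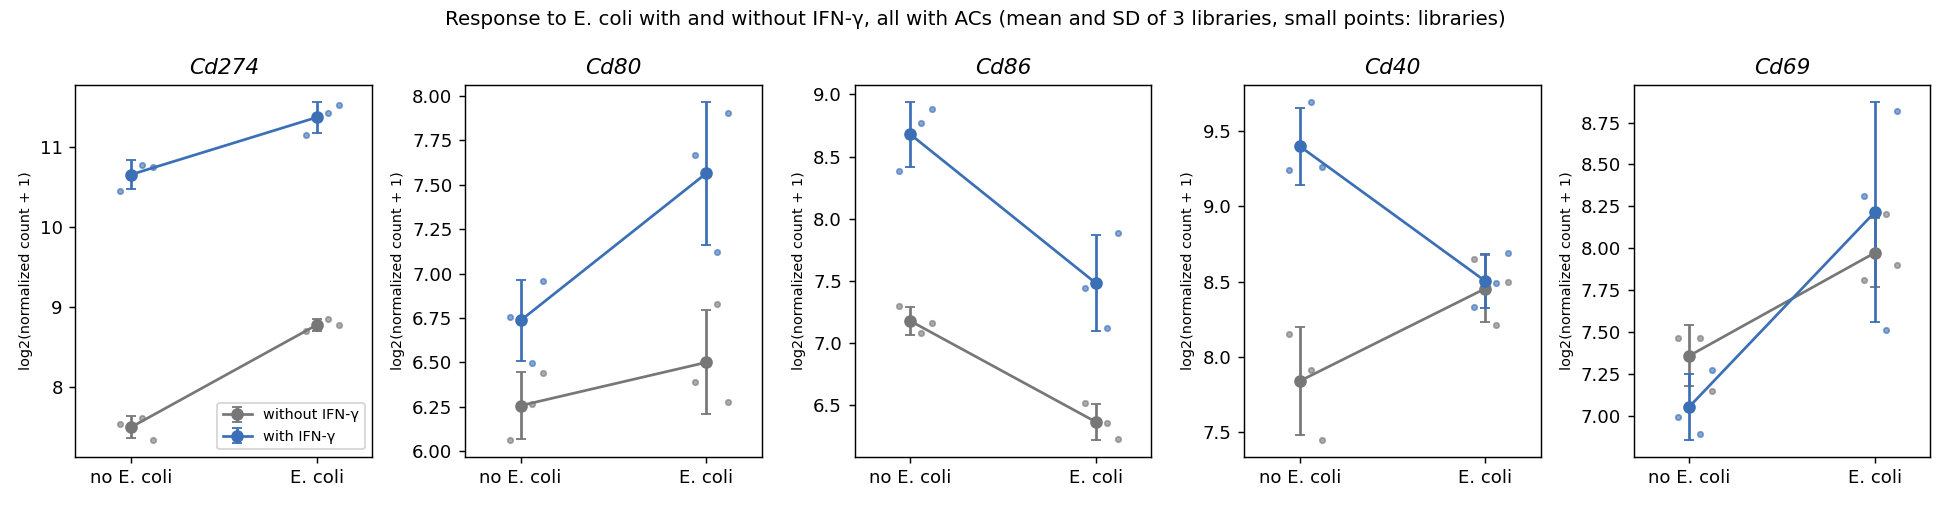
Log2(normalized count + 1) without and with E. coli, in cultures without IFN-γ (grey) and with IFN-γ (blue), as mean and SD of 3 libraries with small points for libraries. The lines of Cd40 run in opposite directions (0.61 without and -0.90 with IFN-γ) and meet at E. coli, those of Cd86 both fall (-0.81 and -1.20), and those of Cd274 both rise (1.27 and 0.71).

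Cd86 and Cd40 moved with the macrophage markers in several groups. Of the 8 markers, 5 fell and none rose with E. coli + ACs, 4 rose and 1 fell with IFN-γ + ACs, and 7 fell and none rose when E. coli followed IFN-γ. Of all genes tested, 5.05% rose and 5.25% fell with E. coli, 11.4% and 9.96% with IFN-γ, and 5.96% and 8.61% in the last comparison. The median log2 change of the list was -1.30, 0.70 and -1.87 in these comparisons. Cd86 changed in the same direction in each of the 3, and Cd40 in the last 2, while Cd40 rose with E. coli alone. With E. coli alone, the B cell, dendritic cell and eosinophil marker sums lay above those with ACs without overlap. With both stimuli over ACs alone, 2 markers rose and 4 fell (median -0.92), against 14.7% and 17.2% of all genes. Cd40 rose by 0.66 there and Cd86 was at 0.30. When IFN-γ was added to E. coli, 2 markers rose and 1 fell (median 0.13), against 9.79% and 9.57% of all genes. Cd86 rose by 1.12 there and Cd40 was at 0.05. In the IL-4 experiment replicate 3 was the highest library of both groups for the marker sum, Cd274, Cd86 and Cd40. The part of these transcripts in the values of Cd86 and Cd40 was not tested.

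**Figure D5:**
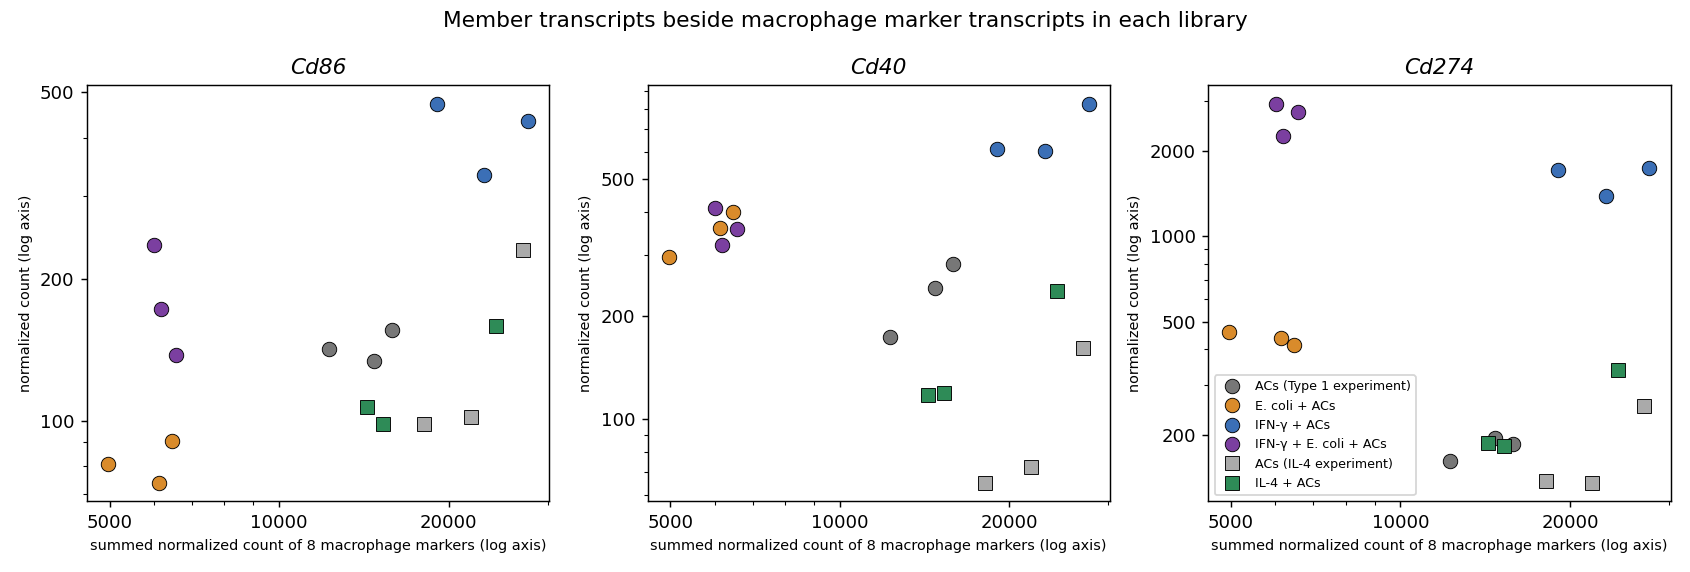
Normalized counts of Cd86, Cd40 and Cd274 (y axis, log) against the summed normalized count of 8 macrophage markers (x axis, log) in each library. Libraries with E. coli lie at sums of 4968.2 to 6567.0 and IFN-γ + ACs libraries at 19049.6 to 27690.2; Cd86 is lowest in E. coli + ACs at the left, while Cd274 is highest in IFN-γ + E. coli + ACs, also at the left.

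Cd69 (ENSMUSG00000030156.5, minus strand of chr6:129267325-129275436) was at 176, 175.5 and 141 with ACs, 224, 294 and 238 with E. coli, and 127, 118 and 154 with IFN-γ. With both stimuli it was at 316, 182 and 451, a wide spread with replicate 2 the lowest. Every Type 1 library with E. coli was above every one without it. The log2 change was 0.86 with both (SE 0.24, limma adjusted p = 0.0078), a call lost without replicate 3 of that group (0.55, adjusted p = 0.054). With E. coli alone it was 0.61 (95% interval 0.11 to 1.11, adjusted p = 0.099) and with IFN-γ alone -0.30 (95% interval -0.80 to 0.19, adjusted p = 0.38), and neither passed. The change with E. coli alone did pass in limma with array weights (0.62, adjusted p = 0.0091) and in edgeR without a filter (0.64, adjusted p = 0.0056). On top of IFN-γ, E. coli raised Cd69 by 1.16 (adjusted p = 0.0018). The interaction was 0.55 (95% interval -0.16 to 1.25, adjusted p = 0.36) and passed only without replicate 2 of IFN-γ + E. coli + ACs (0.90, adjusted p = 0.035).

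With IL-4, Cd69 was at 148, 140.13 and 161 with ACs and at 294, 226 and 195 with IL-4 + ACs. The groups did not overlap, as for Pdcd1lg2, so that 2 of the 8 members lay above ACs and none below, where 8.45% of all genes tested lay above and 8.84% below. The change of 0.65 (SE 0.19, 95% interval 0.22 to 1.08, limma adjusted p = 0.28) did not pass over all genes. Without replicate 3 in both groups it was 0.83 (adjusted p = 0.0068). Its difference from the change with IFN-γ was 0.95 (SE 0.34, adjusted p = 0.062), which did not pass either.

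Icosl (ENSMUSG00000000732.9, plus strand of chr10:78069302-78083913) passed in no comparison. It was at 76.4, 87.3 and 65.2 with ACs, 67.0, 88.3 and 86.2 with E. coli, 80.5, 81.4 and 53.4 with IFN-γ, and 74.1, 55.0 and 44.2 with both. All 4 groups overlapped, with changes of 0.07 (95% interval -0.43 to 0.58), -0.10 (-0.61 to 0.40) and -0.42 (-0.93 to 0.09) over ACs. With IL-4 as the stimulus, it was at 94.8, 107 and 59.0 with ACs and at 53.3, 63.2 and 36.0 with IL-4 + ACs. That change of -0.75 (SE 0.31, 95% interval -1.45 to -0.05, limma adjusted p = 0.48) did not pass, and without replicate 3 in both groups it was -0.78 (adjusted p = 0.030).

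Cd83 (ENSMUSG00000015396.4, plus strand of chr13:43784775-43803132) was close to the limit of detection. It had 1 to 7 reads in each Type 1 library and 2 to 19 in those of the IL-4 experiment. Its normalized count was 1.67 ± 0.76 with ACs, 2.50 ± 1.40 with E. coli, 5.39 ± 4.52 with IFN-γ and 6.34 ± 3.05 with both (SD, n = 3). With IL-4 it was 12.6 ± 7.26, against 7.38 ± 7.68 with ACs, and the change of 0.99 (95% interval -1.05 to 3.03, limma adjusted p = 0.76) did not pass. Among all genes with a value above 0, edgeR gave it no call in any comparison, with an adjusted p of 0.25 for both stimuli and 0.67 for IL-4.

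The order of the groups differed between members. IFN-γ + E. coli + ACs had the highest mean of Cd274, Cd80 and Cd69, IFN-γ + ACs that of Cd86 and Cd40, and IL-4 + ACs that of Pdcd1lg2 and Cd83, with overlap in the case of Cd83. Cd69 with both stimuli overlapped E. coli + ACs and IL-4 + ACs below it. The lowest mean was with E. coli + ACs for Cd86 and with IL-4 + ACs for Icosl. E. coli changed 5 of the 6 tested members in cultures with IFN-γ, with Cd274, Cd80 and Cd69 higher and Cd86 and Cd40 lower, where 5.96% of all genes rose and 8.61% fell. The same 5 were also apart by range, where 14.2% of all genes lay higher and 15.3% lower. Here the same-numbered libraries of both groups correlated, and with the replicate number as a block on these 6 libraries all 5 calls held (adjusted p from 3e-04 to 0.0076). In cultures with E. coli, IFN-γ raised Cd274, Cd80 and Cd86 and lowered none, where 9.79% of all genes rose and 9.57% fell. By range, 4 members lay higher there (those 3 and Cd83) and none lower, against 19.9% and 19.4% of all genes tested, a set without Pdcd1lg2 and Cd83. Of the 7 members tested for the difference between IL-4 and IFN-γ changes, 2 passed (Cd274 and Cd86, both lower with IL-4), against 6.17% of 10414 genes higher and 8.09% lower. Over the 18 libraries, as log2 values minus the mean of their own ACs group, Pearson's r was 0.768 between Cd274 and Cd80, 0.682 between Cd86 and Cd40 and 0.667 between Cd274 and Cd40. These points share libraries and depth and are given as a description.

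By the same measure, among 6907 genes with a mean of at least 50, the genes most like Cd274 were Plek (r = 0.987), Psme2 (0.981) and Fam174a (0.979). For Cd80 they were Brox (0.969), Sh3kbp1 (0.954) and Zfp281 (0.952), and for Cd86 Ctss (0.941), Sdc3 (0.938) and Pmp22 (0.929). Those of Cd40 were Tbcb (0.911), Oasl1 (0.908) and Hipk2 (0.895). Icosl was followed by Gna11 (0.858), Wdr1 (0.858) and Vav1 (0.839), and Cd69 by Sfpq (0.881), Fbxo33 (0.876) and Gsdme (0.860).

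Genes beside the PD-1 ligand locus were examined next. From Jak2 to Ermp1 on chromosome 19, 5 of the 6 listed neighbours were tested, and Rln1 had no reads in any library. Insl6, at chr19:29321344-29325356 on the other strand, had means of 2.84 with ACs, 10.2 with E. coli, 28.0 with IFN-γ and 59.5 with both. Its log2 change was 1.54 (limma adjusted p = 0.032), 2.73 (adjusted p = 0.00017) and 3.96 (adjusted p = 1.5e-06), the same order of groups as Cd274 at a far lower count. Ric1, beyond Pdcd1lg2, rose by 0.98 with IFN-γ (adjusted p = 0.018) and by 1.49 with both (adjusted p = 0.00048). Plgrkt, whose 5′ end at 29367390 lies just before the start of Cd274 on the other strand, changed by -0.61 with E. coli (adjusted p = 0.039). Jak2, a kinase of the IFN-γ receptor, changed by -0.76 with E. coli (adjusted p = 0.00035), and Ermp1 by -1.31 with both (adjusted p = 0.0054). With IL-4 none of the 5 passed, while Pdcd1lg2 in their midst did.

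Other molecules that restrain or support T cells were also described from lists. Of 10 other B7 family members and checkpoint ligands or receptors, 6 were tested in the Type 1 experiment. Cd200, the ligand of the inhibitory receptor CD200R, rose by 1.46 with E. coli (limma adjusted p = 0.015), 2.86 with IFN-γ (adjusted p = 1.3e-05) and 3.0 with both (adjusted p = 4.9e-06). Pvr, a ligand of TIGIT and CD226, rose by 1.43 with IFN-γ (adjusted p = 0.00036) and 1.04 with both (adjusted p = 0.0036). Havcr2, which encodes TIM-3, changed by -1.88 with E. coli (adjusted p = 0.0060) and by -3.78 with both (adjusted p = 1.3e-06), and Vsir, which encodes VISTA, by -0.59 with IFN-γ (adjusted p = 0.0035). None of the 5 members of this list tested with IL-4 passed.

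Only 2 of 7 costimulatory ligands of the TNF superfamily were high enough to test. Tnfsf9, which encodes the 4-1BB ligand, rose by 1.62 with IFN-γ (limma adjusted p = 0.0027) and 2.06 with both (adjusted p = 0.00020), and neither of the 2 passed with E. coli or with IL-4. On the T cell side, a list of 9 partners of all these molecules (PD-1, CD28, CTLA-4, ICOS, CD40L and TNF receptor family members) had few members to test, as 4 were tested with the Type 1 stimuli and 3 with IL-4. Tnfrsf9, which encodes 4-1BB, rose by 2.07 with E. coli (adjusted p = 0.011). The thymocyte and T cell marker sum was also highest there, at 129.2 to 180.3, but overlapped that with ACs (91.1 to 136.2). Without overlap, the B cell sum (56.1 to 91.6 against 41.5 to 53.8) and the dendritic cell sum (106.4 to 166.6 against 89.5 to 104.4) were above ACs. The eosinophil sum was also above ACs and the macrophage sum below. The part of these shifts in the Tnfrsf9 change was not tested. No gene of the list of 9 partners passed with IFN-γ, with both stimuli or with IL-4.

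The regulators known to act on the members were described from lists chosen with earlier results of these data known. Of all genes tested, 5.05% rose and 5.25% fell with E. coli, 11.4% and 9.96% with IFN-γ, and 14.7% and 17.2% with both. Of 9 IFN-γ signalling genes, 5 rose and 1 fell with IFN-γ, 5 rose with both stimuli, 1 fell with E. coli, and none of 8 tested passed with IL-4. The largest changes with IFN-γ were those of Ciita (4.27), Irf1 (2.49) and Nlrc5 (1.80), which encode transcriptional regulators (limma adjusted p = 0.00035, 6.8e-12 and 1.1e-08). Of 10 genes of CD40 and NF-κB signalling, 3 rose with E. coli, namely the signalling adaptor Traf1 (2.16, adjusted p = 2.4e-05), Nfkb2 (1.49, adjusted p = 0.00016) and the feedback inhibitor Tnfaip3 (0.77, adjusted p = 0.0046). With IFN-γ 3 rose, with both stimuli 4 rose, with IL-4 none passed, and none fell in these 4 comparisons. In the interaction 1 of these 10 passed, Traf1 (-1.88, adjusted p = 0.0063), which was lower as Cd40 was. The other 9 were not called, the median of the list was -0.12, and 4.28% of all genes tested passed lower.

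Of 10 genes of IL-4 signalling and its usual targets, 9 were tested with IL-4 and 4 rose, where 0.74% of all genes rose. The largest changes were those of Chil3 (2.57), Clec10a (2.44) and Ccl24 (1.84) (limma adjusted p = 0.00043, 0.00020 and 0.00065). In the Type 1 experiment 5 of the 10 rose with IFN-γ, 2 fell with E. coli, and 2 rose and 2 fell with both. Of all genes tested, 11.4% rose with IFN-γ, 5.25% fell with E. coli, and 14.7% rose and 17.2% fell with both. Clec10a, a lectin of macrophages and dendritic cells, changed by -4.07 with E. coli (adjusted p = 0.00018) and by -4.60 with both (adjusted p = 1.2e-05), in the groups with the lowest macrophage marker sums. Among 4 tested partners and controllers of CD69, Klf2, a transcription factor that drives S1pr1 in T cells, changed by -1.44 with E. coli (adjusted p = 1.8e-06), -2.01 with IFN-γ (adjusted p = 6.5e-09) and -1.64 with both (adjusted p = 6.9e-08). Egr1, an immediate early transcription factor, changed by -2.11, -3.58 and -2.54 (adjusted p = 1.1e-05, 3.7e-09 and 2.4e-07). S1pr1, the receptor that CD69 holds back, rose by 0.83 with E. coli (adjusted p = 0.0016) and changed by -1.06 with IFN-γ (adjusted p = 5.8e-05). With IFN-γ all 4 tested genes of this list fell, where 9.96% of all genes fell. None of the 4 passed with IL-4.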

How the data were processed

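RNA of 18 libraries was sequenced by CEL-Seq2, with 3 libraries per group. The authors deposited a signal per gene, which is the read count divided by a DESeq2 size factor. The submitters' processing notes list TopHat2 2.1.0, HTSeq 0.6.1 and DESeq2 1.26.0, and the study's methods describe a further pipeline with STAR. Which of them made the table, the strand setting and the handling of molecular identifiers are not given in the sources used here. Whole reads were recovered for 100.0% of values (tolerance 0.0051). No deposited column was left unmapped, and symbols were matched for 54409 of 54446 identifiers.

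Fits used limma 3.58.1 in R 4.3.3 (lmFit, eBayes with trend) on log2(normalized count + 1), for genes with a mean of at least 10 over the libraries fitted. The threshold was an adjusted p (Benjamini-Hochberg, over all genes tested) under 0.05 together with a change of at least 1.5-fold, and intervals are 95% intervals of the fit. Alternatives included the recovered reads in DESeq2 1.42.0 and in edgeR 4.0.16, other filters, pseudocounts and scalings, and each library left out. P-values measure the spread between these libraries. The fits were tested on simulated data. Replicate numbers came from the sample labels, and by the correlation of residuals they pair the libraries of IFN-γ + ACs and IFN-γ + E. coli + ACs (0.169 to 0.245 in 3 pairs, against -0.162 to 0.02 for unlike numbers) and no other groups. All members are named in each comparison, with up to 3 called genes per list by the size of their change. The members, the gene lists and the rule were chosen with earlier results of these data known.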

Additional observations from a re-analysis of the deposited data

Results flagged for a closer look

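The change of Cd40 with E. coli differed between cultures with and without IFN-γ, since the interaction term of the limma fit was -1.51 on the log2 scale (SE 0.26, adjusted p = 0.0012). The change of Cd274 with IL-4, which did not pass by itself, was below its rise with IFN-γ, and the difference of these changes, each over the ACs libraries of its own experiment, was -2.72 (SE 0.31, limma adjusted p = 2.7e-06). For Cd86 that difference was -1.66 (SE 0.38, limma adjusted p = 0.0045). IL-4 and IFN-γ were given in separate experiments, so the stimulus and the experiment cannot be told apart in the last 2 values. In the interaction 3 of 8 macrophage markers were lower and none higher (median -0.76), where 4.28% of all genes passed lower. In the IL-4 minus IFN-γ difference 3 of 8 were lower and none higher (median -0.72), where 8.09% of all genes passed lower. For that difference 4 of 7 eosinophil markers were higher and none lower (median 0.85), against 6.17% of all genes higher. The part of these shifts in the flagged values was not tested. No group held 4 or more libraries, so no search for an outlying library within a group was made.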

How the results depend on the processing

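Of the changes of single members, 532 of 560 under other settings and 355 of 381 with 1 library left out kept their direction and their side of the threshold. Where none of the following shows the cause of a change, it was not tested.

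With all 18 libraries in 1 fit, 1 member rose and 0 fell with E. coli (2 and 1 in the fit reported), the interaction held 495 genes (756) and the IL-4 comparison 221 (116). With upper quartile scaling, 1 member rose with E. coli, IFN-γ within E. coli gave Cd40 -0.06, and 1 member passed higher in the difference of IL-4 and IFN-γ changes (Cd69, 1.04). This scaling moved the median of all genes from -0.05 to -0.18 with both stimuli and from -0.04 to -0.15 for IFN-γ within E. coli. Higher and lower calls went from 1494 and 1746 to 1155 and 2200 with both stimuli, from 1160 and 1013 to 966 and 1247 with IFN-γ, from 995 and 973 to 769 and 1352 for IFN-γ within E. coli, and from 643 and 843 to 773 and 722 for IL-4 minus IFN-γ. Array weights put 2 members lower in the interaction (Cd274 at -0.60 and Cd40), and with IL-4 gave 3 members higher (Pdcd1lg2, Cd40 and Cd69), 1 lower (Icosl), 745 genes in all and a Cd86 change of 0.0. The IL-4 minus IFN-γ difference then held 2423 genes (1486) with 1 member higher (Cd69), and Cd40 passed as lower there (-0.82, adjusted p = 0.025), as with the replicate block (-0.86, 0.038) and without replicate 3 of IL-4 + ACs (-1.19, 0.038). A count of 1 higher was also given by a pseudocount of 5 (Pdcd1lg2), a mean of at least 50, edgeR, DESeq2 (Cd69 each) and the fit without replicate 3 in both IL-4 groups (Cd69).

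For IL-4, all genes past the threshold numbered 208 without a filter, 212 by edgeR, 209 by DESeq2, 386 by edgeR without a filter (2 members higher, Pdcd1lg2 and Cd69) and 207 by edgeR with the replicate block, the last of these and the unfiltered edgeR fit chosen after seeing the data. Without replicate 3 in both groups there were 656, with 3 members higher (Pdcd1lg2, Cd40 and Cd69), 1 lower (Icosl) and Cd86 at 0.03. The replicate block left 74 genes and 0 members (Pdcd1lg2, adjusted p = 0.068). In the IL-4 experiment the libraries share only a number by this check, since same-numbered libraries correlated at 0.006 to 0.064 in 3 pairs, though replicate 3 was the shallow one in both groups. In the Type 1 experiment same-numbered libraries correlated at 0.169 to 0.245 between IFN-γ + ACs and IFN-γ + E. coli + ACs, and at -0.125 to 0.115 between other groups. The block on the 6 libraries of that pair, chosen after seeing the data, changed no call of a member there. Apart from Pdcd1lg2 with IL-4 and Cd40 in the difference of IL-4 and IFN-γ changes, the block changed no call of a member.

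With a pseudocount of 5 the log2 ratio of Cd274 to Pdcd1lg2 changed by 0.44 with E. coli (-0.35), 1.83 with IFN-γ (0.86) and 2.48 with both (1.51). With 1 library left out, members higher ranged from 1 to 2 with E. coli, 2 to 4 with both stimuli, 0 to 1 in the interaction, 0 to 1 with IL-4 and 0 to 1 for IL-4 minus IFN-γ. Members lower in the interaction were 1 to 2, and its genes 400 to 1026. The IL-4 comparison held 47 to 130 genes. Icosl ranged from -0.03 to 0.20 with E. coli and from -0.21 to 0.09 with IFN-γ. For IFN-γ within E. coli, Cd40 ranged from -0.07 to 0.15 and Cd69 from -0.06 to 0.59. With IL-4, Cd80 ranged from -0.08 to 0.28 and Cd86 from -0.37 to 0.24. The E. coli change of the ligand ratio ranged from -0.69 to 0.30. Cd83, and Pdcd1lg2 outside IL-4 + ACs, rest on at most 19 reads in a library.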
